A study of Homo sapiens with 2 samples.

Results

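At 4 loci, 8 genes were examined for reads crosslinked to the splicing factor U2AF2. They are NEIL1 with MAN2C1, FANCA with ZNF276 and VPS9D1, TTI2 with MAK16, and RAD52. These 8 of the 58347 genes in the count table were taken by symbol through their gene identifiers. They had been chosen from their counts, so the levels and the ratios between the sides of an overlap are given as descriptions, without a test. The libraries came from HEL, a human erythroleukemia cell line grown without treatment, and formed 1 group of 2 biological replicates. U2AF2-bound RNA was recovered by eCLIP, in which ultraviolet light fixes RNA to protein, the RNA is trimmed with RNase I, and the complexes are captured with an antibody, cut from a membrane and sequenced. No input or control library was analysed here, so no value is an enrichment, and the amount of an RNA in the cell and its binding by U2AF2 cannot be told apart. In a bulk lysate, fewer cells with an RNA and less of that RNA per cell cannot be told apart either.

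U2AF2 is the large subunit of the U2AF heterodimer. It binds the polypyrimidine tract, a stretch rich in C and U just upstream of the AG that ends an intron, and so helps to define the 3' splice site. NEIL1, FANCA, TTI2 and RAD52 act in DNA repair. NEIL1 is a DNA glycosylase that removes oxidized bases at the start of base excision repair, and FANCA is a subunit of the Fanconi anemia core complex, which acts on crosslinks between DNA strands. TTI2 belongs with TELO2 and TTI1 to the TTT complex, a co-chaperone of the large kinases ATM, ATR, DNA-PKcs and mTOR, and RAD52 anneals single-stranded DNA during the repair of broken chromosomes. The genes beside them have other roles. MAN2C1 encodes a cytosolic alpha-mannosidase, ZNF276 a zinc finger protein, VPS9D1 a protein with a VPS9 domain, and MAK16 a protein known from yeast for its part in the assembly of the large ribosomal subunit.

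The genes held 995428 reads in replicate 1 and 1350116 in replicate 2, which was 2.66% and 2.60% of the uniquely mapped reads. Reads tallied as lying on no feature were 97.3% in replicate 1 and 97.4% in replicate 2. The strand setting of the counting is not given in the sources used here. For any gene with a partner on the other strand it is therefore uncertain which of the partners its reads came from, and this holds for every overlap described here. The count of a gene without such a partner, a 0 included, may depend on the same setting. Of coding genes with a gene on the other strand over their exons, 42.0% reached 10 counts in both libraries, against 12.3% of those without. Whether the strand setting lies behind this difference was not tested. Levels are given as CPM, counts per 1000000 scaled gene counts, and are compared between genes only per kb of merged exons. The limit that a count of 0 allows, set at 3 counts, was 2.98 CPM for replicate 1 and 2.25 CPM for replicate 2. Of 14 markers of the erythroid and megakaryocytic lineages of HEL, 3 reached 10 counts in both libraries, with 0 to 22 counts a gene in replicate 1 and 0 to 28 in replicate 2. Of 4 markers of other blood cells, 1 did, with 0 to 27 and 1 to 39 counts, so these reads did not check the identity of the cells.

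Positions are those of GENCODE 29 on GRCh38. NEIL1 (ENSG00000140398.13) lies on chromosome 15 from 75346955 to 75357114 on the plus strand. MAN2C1 (ENSG00000140400.16) lies there from 75355207 to 75368630 on the minus strand, so the genes meet tail to tail and share 1908 bases. On chromosome 16 the order is VPS9D1 (ENSG00000075399.13, 89707134 to 89720986, minus strand), ZNF276 (ENSG00000158805.11, 89720400 to 89740903, plus strand) and FANCA (ENSG00000187741.14, 89737549 to 89816657, minus strand). FANCA and ZNF276 meet tail to tail over 3355 bases. VPS9D1 and ZNF276 meet head to head over 587 bases, of which 2 are exonic in both. On chromosome 8, MAK16 (ENSG00000198042.10, 33484750 to 33501260, plus strand) lies wholly inside TTI2 (ENSG00000129696.12, 33473386 to 33513601, minus strand). RAD52 (ENSG00000002016.17, chromosome 12, 912077 to 990053, minus strand) had no gene on the opposite strand over its exons in this annotation, against its description as part of an opposite-strand pair. Its coding neighbours on the plus strand, WNK1 and ERC1, end 625 bases and start 456 bases away from it.

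Since U2AF2 binds beside 3' splice sites, the annotated sites of each gene were placed on the exons of its partner. This measure comes from the annotation and not from the counts. Of the 38 3' splice sites of MAN2C1, 8 lay in exons of NEIL1, and 0 of the 16 sites of NEIL1 lay in exons of MAN2C1. Of the 49 sites of FANCA, 8 lay in exons of ZNF276, and 2 of the 11 sites of ZNF276 lay in exons of FANCA. Of the 9 sites of TTI2, 2 lay in exons of MAK16, and 0 of the 9 sites of MAK16 lay in exons of TTI2. VPS9D1 and ZNF276 held 0 of each other's sites, while VPS9D1 held 2 of the 3 sites of the antisense gene VPS9D1-AS1. Counting introns of protein-coding transcripts alone left 6 MAN2C1 sites in NEIL1 and the same numbers for the other pairs of coding genes.

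The sequences of sites on the minus strand are shown for the tail-to-tail overlaps, since they are the kind of site U2AF2 binds. Counts per gene hold no read positions, so binding at these sites was not measured. Each is written 5' to 3' on the strand of the gene whose intron it ends, as the last 27 intron bases and the first 3 exon bases, with the longest unbroken run of C and T in the intron part in capitals. They were read from GENCODE 29 transcripts (GRCh38). The 6 MAN2C1 sites that end introns of coding transcripts lie in untranslated sequence of NEIL1 exons, and all 6 end in AG.
MAN2C1 site 1 (chr15:75356900-75356929, minus strand): caagtgggtcttggatctgCCCTCCaggtg
MAN2C1 site 2 (chr15:75356683-75356712, minus strand): ggcccctacgcgCCCTCCTCaccccagctt
MAN2C1 site 3 (chr15:75356447-75356476, minus strand): cagcattgTTTCCTggtcgtaccccaggct
MAN2C1 site 4 (chr15:75356378-75356407, minus strand): taaaCTTCCCCCTgttggctctgccagccc
MAN2C1 site 5 (chr15:75356217-75356246, minus strand): cctcccaccagacgtgTTCCTCTgcaggcg
MAN2C1 site 6 (chr15:75356030-75356059, minus strand): gccttcatggCCCCTCCTgttctccagctg

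In these sites 13 to 16 of the 20 bases before the AG were pyrimidines. Both strands carried annotated 3' splice sites where FANCA meets ZNF276. The 4 FANCA sites with the longest pyrimidine runs are shown, and they lie in untranslated sequence of ZNF276 exons.
FANCA site 5 (chr16:89739264-89739293, minus strand): ctagTCTTCTCTCCTacttccatgaagacg
FANCA site 6 (chr16:89738972-89739001, minus strand): ctgtgagtttgcctgTTTTCTCTCTagggc
FANCA site 7 (chr16:89738924-89738953, minus strand): acaaaagctcgTCTTTTTCTgctgcagtta
FANCA site 8 (chr16:89738706-89738735, minus strand): ggctgaggacctgCTCCTCTCTCacagctg

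Over all 8 FANCA sites 12 to 16 of the 20 bases before the AG were pyrimidines.

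**Figure D1:**
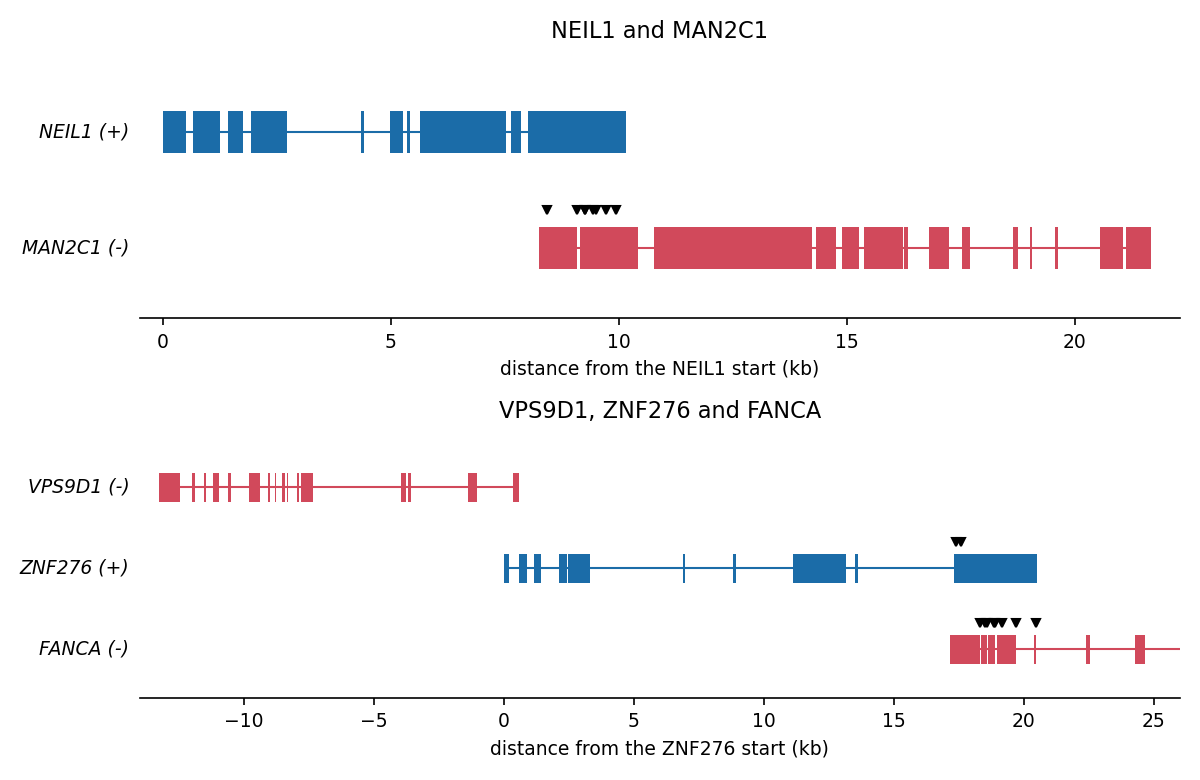
Merged exons (boxes) and spans (lines) of the NEIL1 and MAN2C1 locus and of the VPS9D1, ZNF276 and FANCA locus, by distance in kb from the start of NEIL1 or ZNF276, plus strand in blue and minus strand in red. Triangles above a gene mark its 3' splice sites that lie in exons of the opposite-strand gene shown, 8 for MAN2C1, 8 for FANCA and 2 for ZNF276; FANCA runs on beyond the right edge.

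The first comparison was how many reads each gene held, side by side at each locus. All 8 genes reached 10 counts in both libraries, as did 24.8% of protein-coding genes and 15.4% of all genes; since the 8 were chosen from their counts, nothing is read from this. NEIL1 held 3727 counts in replicate 1 and 5037 in replicate 2, and MAN2C1 held 26 and 27. Per kb of merged exons NEIL1 stood at 539 ± 8.31 CPM (SD, n = 2) and MAN2C1 at 2.52 ± 0.428 CPM. NEIL1 was the 9th of 19817 protein-coding genes on this scale and MAN2C1 the 4770th. The sides of this overlap did not come near each other in either library.

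The genes of the other tail-to-tail overlap held similar counts over their whole length. FANCA held 1856 and 2513 counts, and ZNF276 held 1911 and 2513, the same number in replicate 2. Per kb of merged exons FANCA stood at 191 ± 3.20 CPM (SD, n = 2), the 56th coding gene, and ZNF276 at 255 ± 0.996 CPM, the 38th. VPS9D1, at the other end of ZNF276, held 1401 and 2013 counts and stood at 423 ± 24.8 CPM per kb, the 14th. ZNF276 was above FANCA on this scale in both libraries. All 3 neighbours on chromosome 16 were thus among the highest coding genes, in both libraries.

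At the nested pair the outer gene held most of the reads. TTI2 held 2005 and 2617 counts, or 468 ± 4.30 CPM per kb (SD, n = 2), the 13th coding gene. MAK16 held 84 and 140 counts, or 19.4 ± 3.17 CPM per kb, the 1352nd. RAD52, which has no opposite-strand partner, held 85 and 117 counts, or 20.5 ± 0.583 CPM per kb, the 1292nd. RAD52 and MAK16 overlapped in level, with 20.1 and 20.9 CPM per kb for RAD52 and 17.2 and 21.7 for MAK16.

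In order of level per kb of merged exons the 8 genes ran NEIL1, TTI2, VPS9D1, ZNF276, FANCA, RAD52, MAK16 and MAN2C1. Values of the libraries did not overlap between neighbours in this order except for RAD52 and MAK16. TTI2 had 471 and 465 CPM per kb and VPS9D1 405 and 440.5, the closest neighbours among the 5 high genes. FANCA, the lowest of these 5, had 189 and 194 CPM per kb and stood well clear of RAD52.

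**Figure D2:**
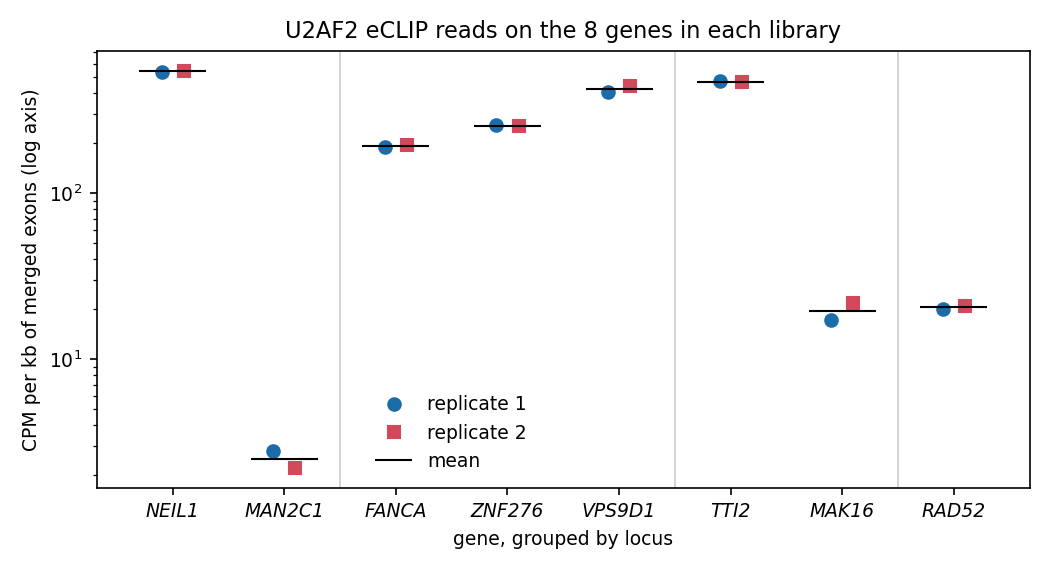
Level of each of the 8 genes in CPM per kb of merged exons (log axis), with replicate 1 as circles, replicate 2 as squares and their mean as a line; grey lines part the loci. NEIL1, FANCA, ZNF276, VPS9D1 and TTI2 lie between 189 and 545, and MAN2C1, MAK16 and RAD52 between 2.22 and 21.7.

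The second comparison set the sides of each overlap against each other as a ratio of counts per kb of merged exons, with 0.5 added to each count. NEIL1 exceeded MAN2C1 by 185-fold in replicate 1 and 241-fold in replicate 2, a log2 ratio of 7.72 ± 0.27 (SD, n = 2). Of the raw counts of the pair, NEIL1 took 99.3% in replicate 1 (exact 95% binomial interval 99.0 to 99.5) and 99.5% in replicate 2 (99.2 to 99.6). TTI2 exceeded MAK16 by 27.2-fold and 21.4-fold, a log2 ratio of 4.59 ± 0.25, and took 96.0% (95.0 to 96.8) and 94.9% (94.0 to 95.7) of the raw counts. Per kb of gene span instead of exons the log2 ratio of TTI2 over MAK16 was 3.11. In both pairs the DNA repair gene was the high side in both libraries.

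FANCA and ZNF276 lay closer together. The ratio of FANCA over ZNF276 was 0.741 in replicate 1 and 0.763 in replicate 2, a log2 ratio of -0.41 ± 0.030 (SD, n = 2). FANCA took 49.3% (exact 95% binomial interval 47.7 to 50.9) of the raw counts of the pair in replicate 1, and in replicate 2, where the counts were equal, the interval of its share was 48.6% to 51.4%. The size of this ratio rests on the length used, since it was -0.021 on raw counts and -1.97 per kb of gene span. Bases exonic in both genes (2302 here, 1831 for NEIL1 and MAN2C1) stayed in both lengths, and no setting without them was tried. VPS9D1 over ZNF276 gave 1.59 and 1.74, a log2 ratio of 0.73 ± 0.090, and this direction turned on raw counts, where the log2 ratio was -0.38. VPS9D1 took 42.3% (40.6 to 44.0) and 44.5% (43.0 to 45.9) of the raw counts of that pair. Intervals cover counting error only, and reads of eCLIP libraries are not independent molecules where PCR copies remain.

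These ratios were placed among all protein-coding pairs on opposite strands whose higher gene held at least 10 counts in each library. There were 2077 such pairs, with a median ratio of 8.75-fold and quartiles of 1.55 and 5.26 on the log2 scale. The higher gene was at least 10-fold above the lower one in both libraries in 41.7% of pairs, and in 2 of the 4 pairs described here, NEIL1 with MAN2C1 and TTI2 with MAK16. Per kb of gene span TTI2 over MAK16 fell short of it, at 9.74-fold and 7.65-fold. By size of the ratio NEIL1 with MAN2C1 ranked 117th, TTI2 with MAK16 666th, VPS9D1 with ZNF276 1852nd and ZNF276 with FANCA 1960th. Each pair was ordered by its own counts per kb, and the lower gene needed no minimum, so some imbalance is built into these ratios. On this scale the ratio of the FANCA pair lay near the low end of the range. The median log2 ratio was 2.78 for 973 tail-to-tail pairs, 3.14 for 697 head-to-head pairs and 4.05 for 407 nested pairs.

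The pairs most like NEIL1 and MAN2C1, by the smallest absolute difference in mean log2 ratio over both libraries, included COX11 with STXBP4 and IAH1 with ADAM17. Their means differed from it by 0.015 and 0.022, at far lower counts. In single libraries the match was looser. The log2 ratio was 8.13 in replicate 1 and 7.35 in replicate 2 for COX11 over STXBP4. For IAH1 over ADAM17 it was 8.61 and 6.79. COX11 held 151 and 204 counts and IAH1 322 and 396, with 1 to 6 counts on the lower sides. Those most like FANCA and ZNF276 were BAG4 with LSM1, ATP5PF with GABPA and CLTA with GNE, each with at most 104 counts a library on either side. A like mean ratio thus came with different arrangements and different levels.

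**Figure D3:**
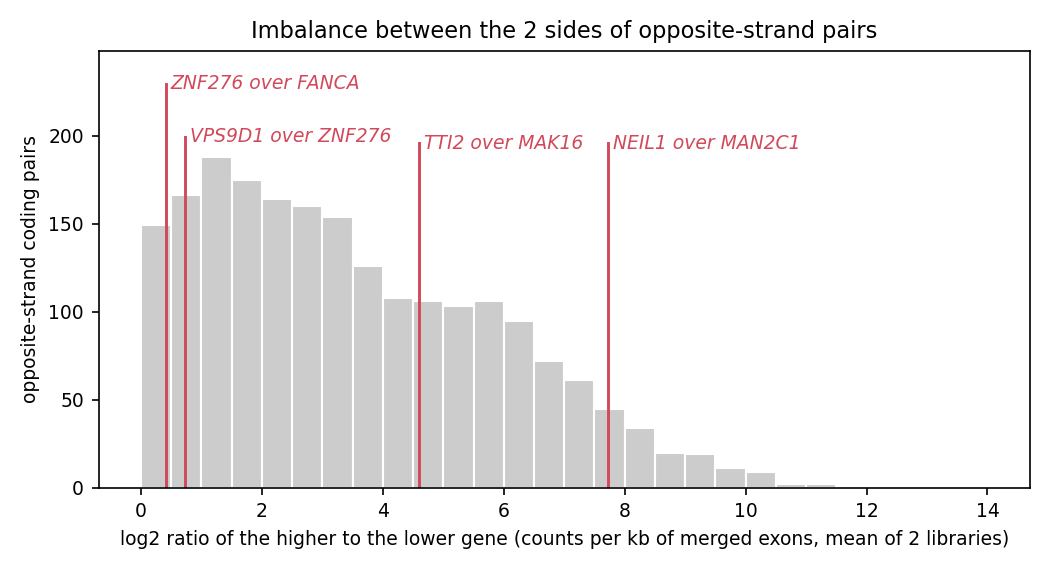
Number of opposite-strand protein-coding pairs (grey bars, 2077 pairs) by log2 ratio of the higher to the lower gene in counts per kb of merged exons, mean of both libraries. Red lines mark ZNF276 over FANCA at 0.41 and VPS9D1 over ZNF276 at 0.73 at the low end, TTI2 over MAK16 at 4.59, and NEIL1 over MAN2C1 at 7.72 in the upper tail.

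The position of the partner's splice sites was then set beside the side that held the reads. NEIL1, with 8 sites of MAN2C1 in its exons and none in return, was the high side. ZNF276, with 8 FANCA sites against 2 in return, was the slightly higher side per kb of exons. TTI2, with no MAK16 site in its exons while MAK16 held 2 TTI2 sites, was the high side as well. These pairs were chosen from their counts, so no order is read from them. Among all 2077 pairs the higher gene held more of its partner's sites in 400, fewer in 292 and the same number in 1385.

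Genes also carry their own 3' splice sites inside exons of other transcripts of the same gene, as where an intron is retained. This was so for 29 of the 38 sites of MAN2C1, 11 of 16 of NEIL1, 7 of 11 of ZNF276 and 9 of 49 of FANCA. It was so for 4 of 16 sites of VPS9D1, 2 of 9 of TTI2, 2 of 9 of MAK16 and 6 of 15 of RAD52. MAN2C1 had the most such sites of its own and the lowest level of the 8 genes. Since the 8 were chosen from their counts, nothing is read from this.

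Across protein-coding genes the level was higher where more splice sites of an opposite-strand gene of any class lay in the exons. The median was 0.226 CPM per kb for 11446 genes with no gene on the other strand over their exons and 0.985 for 5532 genes with such a gene but none of its sites. It was 1.46 for 2427 genes with 1 to 2 sites, 9.02 for 359 genes with 3 to 5 and 21.7 for 53 genes with 6 or more. NEIL1 and ZNF276 are in the last class, whose upper quartile was 68.5, and both lay above it. FANCA, VPS9D1 and MAK16 lay above the upper quartile of 11.8 of genes with 1 to 2 sites, and TTI2 above that of 5.51 of genes with a partner but no site. MAN2C1, in the same class as TTI2, lay below it, and RAD52 lay above the upper quartile of 0.840 of genes with no gene on the other strand. Genes of a class share libraries and differ in exon length, and no test was run on this order. The genes described here were chosen from their counts, so nothing is read from where they lie within a class.

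**Figure D4:**
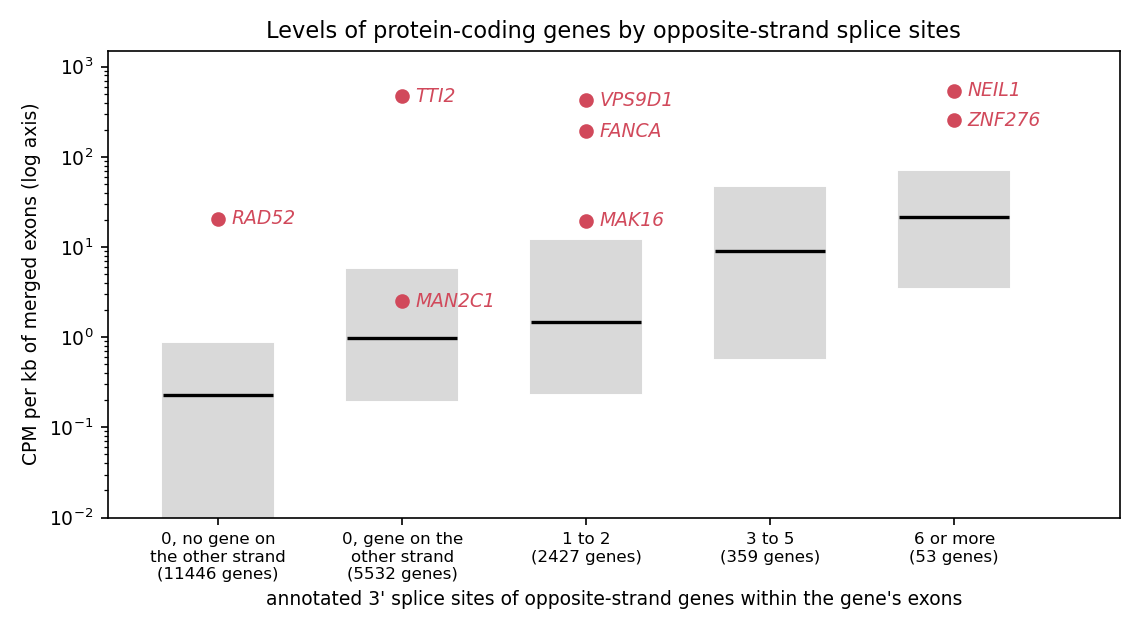
Level in CPM per kb of merged exons (log axis, mean of both libraries) of protein-coding genes by the number of 3' splice sites of opposite-strand genes in their exons; grey boxes span the quartiles, cut at the axis in the first class whose lower quartile is 0, and black lines are medians, running from 0.226 to 21.7. Red points are the 8 genes, of which only MAN2C1 lies inside the box of its class.

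Other protein-coding genes around these loci held lower counts than the high genes within them. Within 100 kb of NEIL1 and MAN2C1, 5 other coding genes had a median of 0.551 CPM per kb, and the highest was PTPN9 with 3.16, which exceeds MAN2C1. Around the chromosome 16 locus 8 genes had a median of 1.38, led by SPATA2L with 11.8, below all 3 genes of the locus. Around TTI2 and MAK16 3 genes were led by DUSP26 with 1.88. RAD52 stood above WNK1, with 36 and 41 counts and 2.31 ± 0.244 CPM per kb (SD, n = 2), and ERC1, with 14 and 18 counts and 1.02 ± 0.020 CPM per kb.

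Non-coding genes on the opposite strand over the exons of the 8 were lower than the genes they overlap or held no reads, with 1 exception. The long non-coding RNA gene AC068338.2, which meets MAN2C1 head to head over 476 bases, held 305 and 383 counts and stood at 206 ± 7.53 CPM per kb (SD, n = 2), above MAN2C1. VPS9D1-AS1, inside VPS9D1, held 91 and 160 counts. AC068338.3, at the start of NEIL1, held 2 and 5 counts, and MIR631 and SNORD13, inside NEIL1 and TTI2, held 0 in both libraries. On the same strand, AC004803.1 overlaps RAD52 and held 4 and 5 counts, and FUT10 overlaps the end of TTI2 by 37 bases and held 0 in both libraries.

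Agreement between the replicates was tested gene by gene by an exact conditional binomial test, two-sided, at the scaled library sizes, with Benjamini-Hochberg adjustment over 8983 genes. It called 45 genes, or 0.501%, of which 10 were higher in replicate 1 and 35 in replicate 2. An unadjusted p below 0.05 was found for 769. None of the 8 genes was called, and 1 of them, VPS9D1, had an unadjusted p below 0.05. VPS9D1 had the lowest adjusted exact p, 0.422, with a ratio of replicate 1 over replicate 2 of 0.920. The largest ratios were 1.27 for MAN2C1 and 0.795 for MAK16, which with RAD52 held the fewest counts, with adjusted exact p of 0.935 and 0.716. The other 5 genes had ratios of 0.962 to 1.01. This test compares the 2 libraries and covers counting error only.

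The 4 DNA repair genes were last read beside 148 other genes of 9 DNA repair lists. Without the 4, which were chosen from their counts, 49 of these 148 genes, or 33.1%, reached 10 counts in both libraries, against 24.8% of protein-coding genes; with them it was 53 of 152. A gene on the opposite strand lay over the exons of 58.1% of the 148 repair genes and 42.2% of all coding genes. Among genes with such a partner 43 of 86 repair genes reached 10 counts in both libraries, against 42.0% of all coding genes. Among genes without one 6 of 62 (9.68%) did, against 12.3%. The median level of the 148 genes was 0.716 CPM per kb, against 0.383 for all coding genes. Of the 49 repair genes that reached 10 counts, 87.8% had a gene on the other strand, and of all such coding genes 71.5% did. No test was run on these shares.

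NEIL1 led the 11 glycosylase genes, of which 4 reached 10 counts in each library. The next by mean was MPG, which removes alkylated bases, at 14.7 ± 5.43 CPM per kb (SD, n = 2), opposite NPRL3. MUTYH stood at 14.1 ± 0.908 and was above MPG in replicate 2, with 13.4 against 10.8 CPM per kb. All 4 had an opposite-strand gene, as did 8 of the 11 and 71.5% of all coding genes that reached 10 counts. Of 16 further genes of base excision and single-strand break repair 4 reached it. LIG3, a DNA ligase gene, was among them at 11.9 ± 1.26 CPM per kb. NEIL1 thus stood above every other gene of these base excision lists.

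FANCA led 20 Fanconi anemia genes, of which 9 reached 10 counts in each library, followed by FANCI, a subunit of the complex that is ubiquitinated at crosslinks, at 64.8 ± 7.05 CPM per kb (SD, n = 2), opposite POLG. TTI2 led 17 genes of the TTT complex, some of its client kinases and the checkpoint, of which 6 reached 10 counts in each library. It was followed by RAD9A of the checkpoint clamp at 30.4 ± 3.79 CPM per kb. PRKDC, the gene of the client DNA-PKcs, was counted in the end joining list and held 30 and 28 counts. The other subunits of the TTT complex did not share the level of TTI2. TELO2 held 5 counts in each library, or 1.03 ± 0.202 CPM per kb, and TTI1 held 0 in both.

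RAD52 was not among the leading genes of homologous recombination. Of these 33 genes 10 reached 10 counts in each library, led by XRCC3, a recombination factor gene, at 79.1 ± 6.68 CPM per kb (SD, n = 2), opposite KLC1, and RECQL5, a DNA helicase gene, at 70.4 ± 3.54. RAD52 was the only 1 of the 10 with no gene on the other strand over its exons. In the remaining lists the leading genes were TP53BP1 and DCLRE1C in end joining (5 of 13 genes), MSH6 and PMS1 in mismatch repair (5 of 7), XPA and ERCC1 in nucleotide excision repair (6 of 23), and POLH and REV1 in translesion synthesis and direct reversal (4 of 12). Of these XPA, a damage recognition factor, was highest at 113 ± 24.6 CPM per kb, with MSH6, a mismatch sensor, at 98.2 ± 6.39, and neither reached the level of FANCA. XPA had no gene on the other strand over its exons, while MSH6 lies opposite FBXO11.

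**Figure D5:**
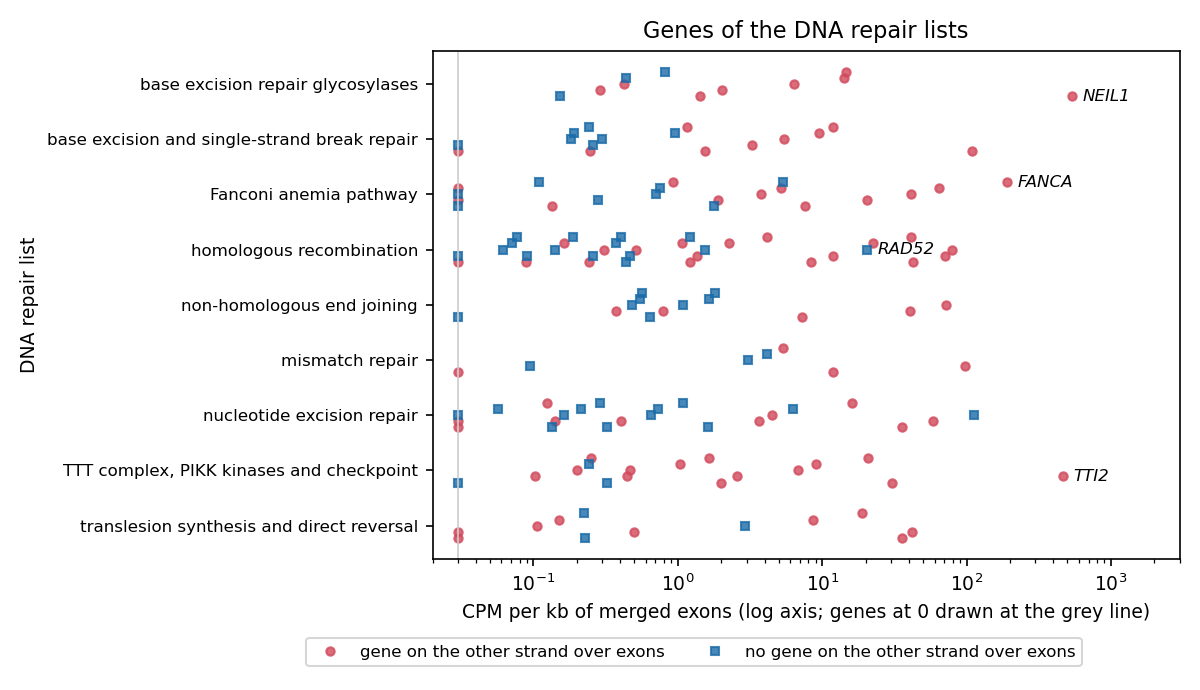
Level in CPM per kb of merged exons (log axis, mean of both libraries) of the 152 genes of 9 DNA repair lists, as red circles where a gene lies on the other strand over the exons and blue squares where none does. NEIL1, TTI2 and FANCA are the highest 3 genes at 539, 468 and 191, and RAD52 lies at 20.5 among genes with no partner.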

How the data were processed

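The authors deposited raw counts per gene for 2 U2AF2 eCLIP libraries, with tallies of reads that fell on no gene or on several genes, mapped to several places or did not map. These tallies made up 98.3% of the reads of each library and entered neither library sizes nor tests. The submitters' processing notes name STAR 2.7.0f, cutadapt and GRCh38.p10. How genes were counted, on which strand, with which annotation and whether PCR duplicates were removed is not given in the sources used here. Remaining duplicates would make the intervals narrower than they should be. Reads mapping to several places are outside the counts.

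Identifiers were matched without version to GENCODE 29 (99.5% of 58347 genes; all 8 genes described carry the same version). Exons of all transcripts of a gene were merged, and gaps of at least 30 bases within a transcript were taken as introns. Library sizes were scaled by TMM in edgeR 4.0.16 (R 4.3.3) over genes that reached 10 counts in both libraries, with factors of 1.01 and 0.987; DESeq2 1.42.0 gave the alternative size factors. With 1 group, edgeR's quasi-likelihood test had no comparison to make. Calls used an adjusted p of 0.05. The chi-square per degree of freedom between the libraries was 1.50, so they differed by more than sampling noise. Other steps used Python 3.11.15, scipy 1.17.1 and pandas 2.3.3.

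The 8 genes and the repair lists were chosen with earlier results of these data known. The genes named were the 8, the genes over their exons, the 2 highest genes per kb of each list, the TTT subunits, and the 3 pairs with the ratio nearest to NEIL1 with MAN2C1 and to FANCA with ZNF276; genes around the loci and exceptions were named after their values were seen. Some items that this rule gives are not reported here.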

Additional observations from a re-analysis of the deposited data

How the results depend on the processing

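NEIL1 over MAN2C1 and TTI2 over MAK16 kept their direction under every length scale, added count and left-out library tried. On raw counts the log2 ratio of NEIL1 over MAN2C1 was 7.33, and per kb of gene span that of TTI2 over MAK16 was 3.11. FANCA over ZNF276 was -1.97 per kb of gene span and -0.021 on raw counts. VPS9D1 over ZNF276 was 0.18 per kb of span and -0.38 on raw counts, where its direction turned; the exons of ZNF276 are longer (7427 bases against 3428). Leaving out 1 library gave 7.53 to 7.92 for NEIL1 over MAN2C1, -0.43 to -0.39 for FANCA over ZNF276, 0.67 to 0.80 for VPS9D1 over ZNF276 and 4.42 to 4.77 for TTI2 over MAK16. Of the repair genes, 31 reached 50 counts in both libraries and 7 reached 10 with no gene on the other strand, which leaves fewer genes to count. With no filter on counts the test between libraries called 71 genes instead of 45, and none of the 8 under any scaling or filter tried. No paired analysis was possible because the samples form 1 group. With 26 and 27 counts, MAN2C1 limits the precision of its ratio.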

Other observations

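The repair genes named here were chosen after their values were seen, and no link between opposite-strand splice sites and reads was tested on them. OGG1 and XPC lay below the median of 21.7 CPM per kb of genes with 6 or more such sites. Both lay above the median of 0.383 of all coding genes. OGG1, the glycosylase for 8-oxoguanine, held 9 sites of opposite-strand genes in its exons and stood at 6.36 ± 1.45 CPM per kb of merged exons (SD, n = 2), with 47 and 86 counts. XPC, a damage sensor of nucleotide excision repair, held 7 such sites and stood at 3.63 ± 0.168, with 17 and 24 counts. XPA, with no gene on the other strand over its exons, held 177 and 319 counts.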
